A study of Mus musculus with 9 samples.

Results

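Complex I genes were followed through RNA sequencing of cultured B16 cells. B16 is a mouse melanoma line, kept here in DMEM with serum. The genes were the protein-coding rows of the deposited count table whose symbol starts with Nduf followed by a, b, c, s or v, together with ND1 to ND6 and ND4L of the mitochondrial genome. This rule took 58 of the 21676 genes in the table, and all 58 passed the filter on low counts. By role they were 7 nuclear core subunits, 7 mitochondrially encoded core subunits, 30 accessory subunits and 8 assembly factors. The remaining 6 carry the name for other reasons. Ndufa4, now counted as a subunit of cytochrome c oxidase, and its relative Ndufa4l2 formed a pair of their own, and Ndufab1-ps, Ndufb4b, Ndufb4c and Ndufs6b are copies of accessory genes.

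The libraries came from cells carrying the hairpin shAD4-1, cells carrying the hairpin shAD4-2 and cells carrying a control hairpin (shControl), with 3 biological replicates a group per the design text. The series title names the adhesion receptor ADGRL4. The design text calls the hairpin groups knockdown derivatives of B16. The labels do not say whether a derivative is 1 clone, and each hairpin was represented by a single derivative. Adgrl4 itself was not analysed here, so the knockdown was not checked.

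Complex I, or NADH:ubiquinone oxidoreductase, takes electrons from NADH, passes them along iron-sulfur clusters to ubiquinone and pumps protons across the inner mitochondrial membrane. Its catalytic core is encoded in part by the nucleus (the flavin and iron-sulfur subunits of the matrix arm, which holds the N module for NADH oxidation and the Q module for quinone reduction) and in part by the mitochondrial genome (the proton-pumping membrane arm, or P module). Accessory subunits surround the core, and assembly factors help to build the enzyme without staying in it.

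Gene counts summed to 31.3 to 36.9 M reads per library. Complex I genes took 1.36 to 1.44% of them in shAD4-1 libraries, 1.43 to 1.59% in shAD4-2 libraries and 0.813 to 0.967% in control libraries. Melanocyte markers (Mlana, Pmel, Tyr, Tyrp1, Dct, Mitf and Sox10) summed to 9981 CPM with shAD4-1, 11230 CPM with shAD4-2 and 11780 CPM in control cells, where CPM is the read count scaled to library size with TMM factors. By the test given below, all 7 were called lower with shAD4-1 (32.3% of all tested genes). With shAD4-2, Mlana and Pmel were called higher and 2 other markers lower (34.2% and 34.8% of all tested genes). The keratinocyte, leukocyte and endothelial markers in the table summed to 0.283 CPM or less in every library. The 4 of 5 fibroblast markers in the table summed to 10.3 to 12.2 CPM with shAD4-1, 12.4 to 14.0 CPM with shAD4-2 and 5.08 to 7.10 CPM in control libraries. Of these, Col1a2 (6.13-fold and 8.46-fold) and Col1a1 (1.62-fold and 1.89-fold) rose with shAD4-1 and shAD4-2, Pdgfra was not called and Lum was at or near 0, and their part in the results was not tested. Among the control libraries, replicate 1 stood apart: the chi-square per degree of freedom of its counts against the other control libraries was 12.4 and 18.1, against 3.44 between those libraries and 2.99 to 6.17 within the hairpin groups. In bulk RNA, fewer cells of a type and less RNA per cell cannot be told apart.

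Most complex I genes differed from control with either hairpin, and more rose than fell. With shAD4-1, 32 of the 58 genes rose and 11 fell (edgeR quasi-likelihood test, Benjamini-Hochberg adjusted p under 0.05 over all 13807 tested genes). Of all tested genes 65% were called in that comparison, 32.7% higher and 32.3% lower, so the share of complex I genes called, 74.1%, lay near the background, while the share that rose, 55.2%, lay above it. With shAD4-2, 32 rose and 12 fell, or 75.9% called, against 69% of all tested genes (34.2% higher and 34.8% lower). The median log2 fold change of the 58 genes was 0.23 with shAD4-1 and 0.19 with shAD4-2, against -0.01 over all tested genes in each comparison. Hairpin and control libraries did not overlap for 44 of the 58 genes with shAD4-1 (68% of all tested genes) and for 40 with shAD4-2 (70.6%). Both comparisons share the control libraries. With both hairpins 29 of the genes were called higher and 8 lower, and 0 were called in opposite directions (28.1% and 27.6% of all tested genes were called higher and lower with both).

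By count, rises were most frequent among core subunits. All 7 mitochondrially encoded core subunits rose with each hairpin, at a median log2 fold change of 1.51 with shAD4-1 and 1.68 with shAD4-2. Of the 7 nuclear core subunits, 7 rose with shAD4-1 and 6 with shAD4-2, at medians of 0.41 and 0.35. The 30 accessory subunits were divided, with 12 higher and 11 lower with shAD4-1 and 12 higher and 9 lower with shAD4-2, at medians of 0.01 and -0.02. The shares that rose, 40% with each hairpin, lay near those of all tested genes given above. Of the 8 assembly factors 5 rose with each hairpin, and 0 fell with shAD4-1 (edgeR, and also 0 at an unadjusted p under 0.05, with DESeq2 and with limma) and 2 with shAD4-2.

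**Figure D1:**
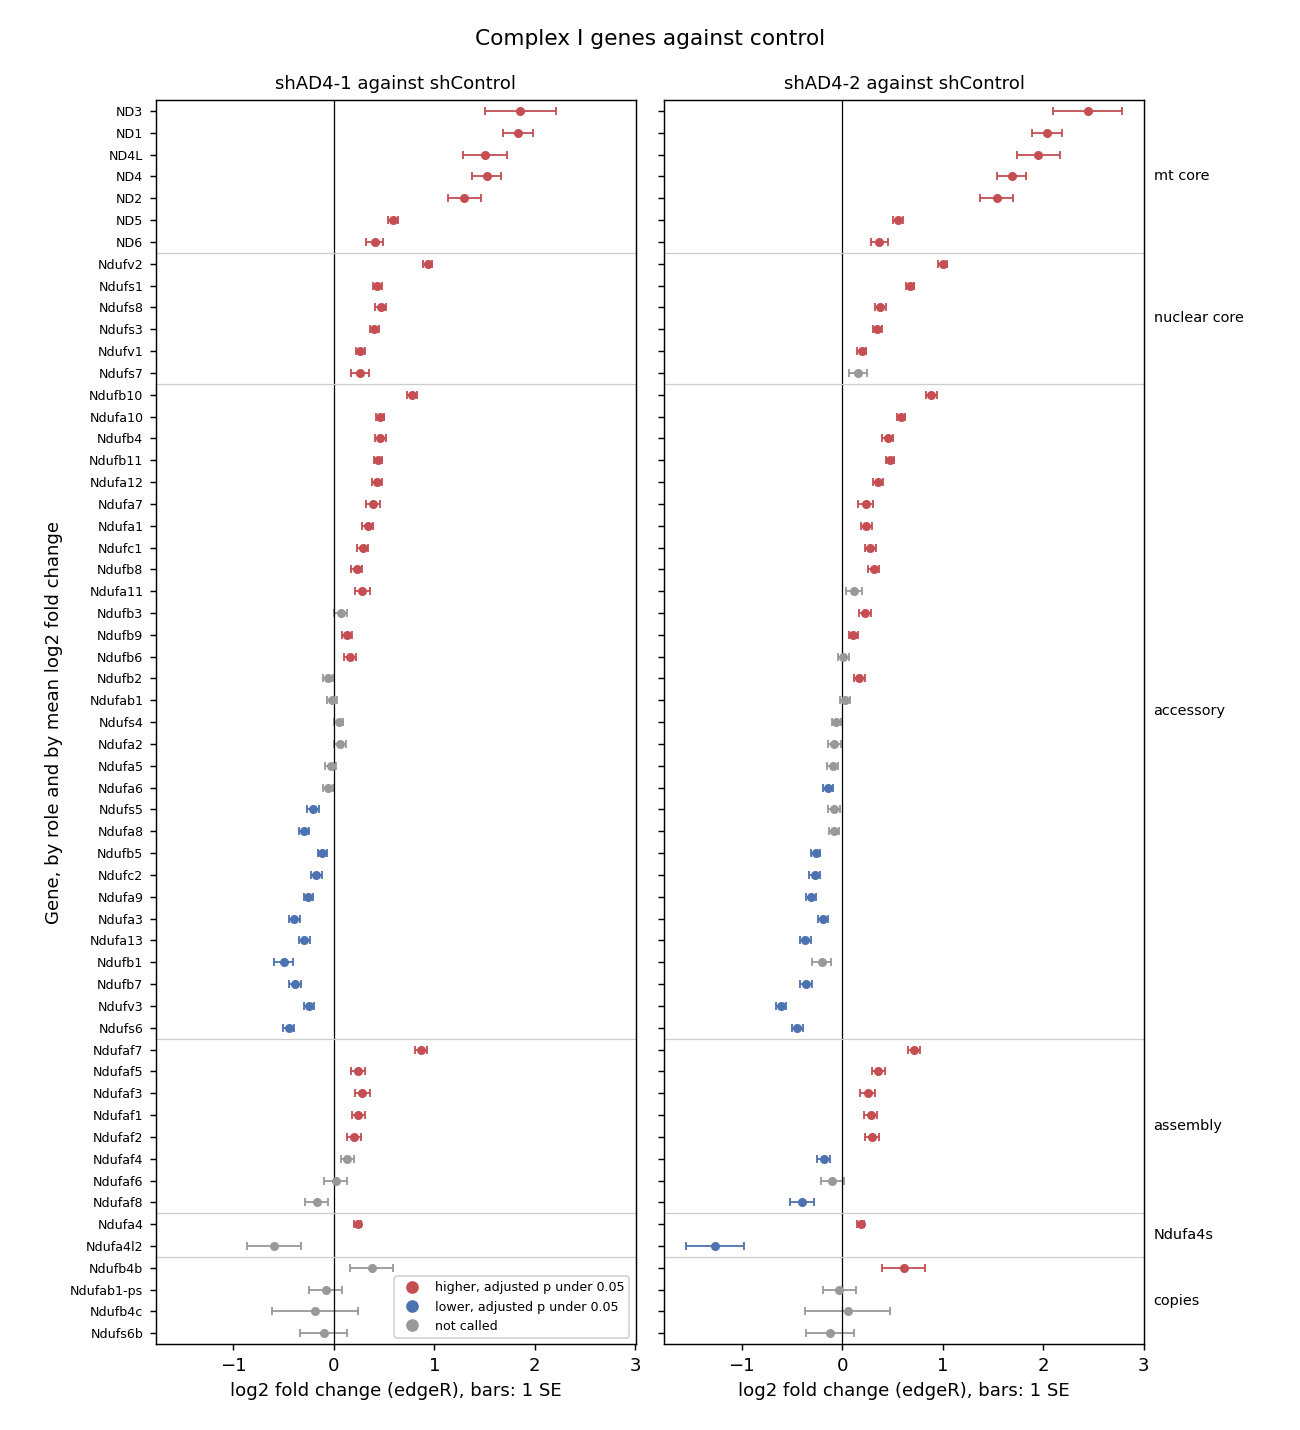
Log2 fold changes of complex I genes against shControl, with shAD4-1 on the left and shAD4-2 on the right. Points are edgeR estimates with bars of 1 SE, grouped by role (mt core: mitochondrially encoded core subunits, Ndufa4s: Ndufa4 and Ndufa4l2), in red where called higher, blue where called lower and grey where not called. The 7 mitochondrially encoded genes all lie to the right of 0, while accessory subunits lie on both sides.

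The mitochondrially encoded ND1, ND2, ND3, ND4 and ND4L showed the widest differences of the set, while ND5 and ND6 changed less than the nuclear Ndufv2. ND1, which closes the quinone-binding chamber at the foot of the matrix arm, had 2623, 2867 and 2887 CPM in the shAD4-1 libraries, 2962, 3039 and 3669 CPM in the shAD4-2 libraries and 1089, 675 and 592 CPM in the control libraries. Every hairpin library lay above every control library, and control replicate 1 lay above the other control libraries. The rise of ND1 was 3.56-fold with shAD4-1 (log2 1.83, SE 0.15, adjusted p = 3.25e-09, edgeR) and 4.11-fold with shAD4-2 (log2 2.04, SE 0.15, adjusted p = 6.61e-10).

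ND2, ND4 and ND5 are the antiporter-like subunits that form proton channels. ND2 had 1329, 1464 and 1490 CPM with shAD4-1, 1563, 1578 and 1910 CPM with shAD4-2 and 837, 488 and 416 CPM in control libraries. Again the groups did not overlap, and ND2 rose 2.46-fold with shAD4-1 (adjusted p = 1.13e-06, edgeR) and 2.90-fold with shAD4-2 (adjusted p = 1.15e-07). ND4 had 1554, 1650 and 1714 CPM with shAD4-1, 1747, 1743 and 2024 CPM with shAD4-2 and 806, 476 and 433 CPM in control libraries, which gave rises of 2.87-fold (adjusted p = 4.26e-08, edgeR) and 3.22-fold (adjusted p = 9.2e-09). ND5, at the far end of the membrane arm, had 3708, 3890 and 4000 CPM with shAD4-1, 3679, 3621 and 4029 CPM with shAD4-2 and 2795, 2545 and 2375 CPM in control libraries. Its rise was smaller, 0.59 on the log2 scale with shAD4-1 (adjusted p = 1.53e-08, edgeR) and 0.55 with shAD4-2 (adjusted p = 2.89e-08), and its libraries did not overlap between hairpin and control groups either.

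The small membrane subunits were read at much lower levels. ND3, whose loop lies near the quinone site, had 43, 53 and 43 reads with shAD4-1, 69, 46 and 75 reads with shAD4-2 and 16, 13 and 8 reads in control libraries. ND4L had 200, 235 and 247 reads with shAD4-1, 301, 226 and 317 with shAD4-2 and 111, 61 and 60 in control libraries. Hairpin libraries were above control libraries for both genes. The fitted rise of ND3 was 3.62-fold with shAD4-1 (adjusted p = 0.000145, edgeR) and 5.44-fold with shAD4-2 (adjusted p = 4.49e-06), and that of ND4L was 2.84-fold (adjusted p = 7.51e-06) and 3.87-fold (adjusted p = 2.06e-07). ND6, the only one of the 7 encoded on the other strand of the mitochondrial genome, had 29.4, 28.7 and 31.7 CPM with shAD4-1, 27.7, 27.7 and 32.0 CPM with shAD4-2 and 25.7, 22.1 and 19.9 CPM in control libraries. It rose 1.33-fold (adjusted p = 0.000361, edgeR) and 1.29-fold (adjusted p = 0.000888). The margin between the lowest hairpin library and the highest control library was narrow for ND6.

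**Figure D2:**
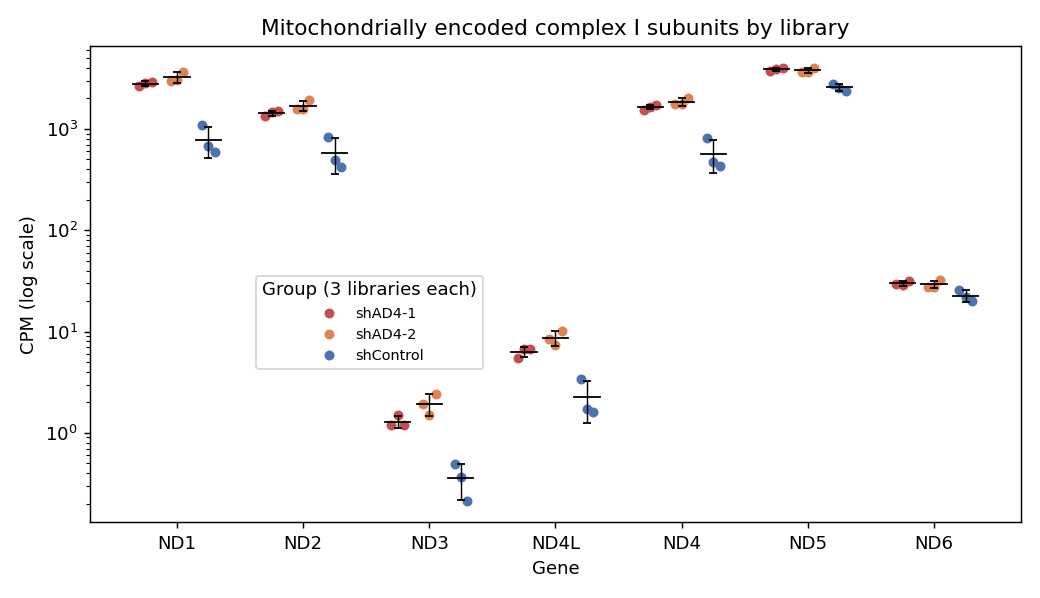
CPM of the 7 mitochondrially encoded complex I subunits on a log axis, 1 point per library, with the mean (line) and SD (bars) of 3 libraries for shAD4-1, shAD4-2 and shControl. The hairpin libraries lie above all control libraries for each gene, with the widest gaps for ND1 and ND3 and narrow ones for ND5 and ND6.

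Because the rises were unequal, the proportions among the mitochondrially encoded subunits differed between the groups. Per length, ND1 stood at 1.38 ± 0.0285 times ND5 with shAD4-1 and 1.62 ± 0.103 times with shAD4-2, against 0.574 ± 0.147 times in control cells (ratio of FPKM within a library, SD, n = 3). ND5 was thus the highest of the 7 in control cells, at 1448 FPKM against 843 for ND1, whereas ND1 was the highest with shAD4-1 (2876 FPKM against 2089 for ND5) and with shAD4-2 (3326 against 2044). The ratio of ND6 to ND5 was 0.0272 ± 0.00115 with shAD4-1, 0.0271 ± 0.000747 with shAD4-2 and 0.0308 ± 0.00146 in control cells. These ratios do not depend on the scaling of the libraries.

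Along the mitochondrial genome the sizes neither rose nor fell steadily with either hairpin. In gene order, the log2 fold changes with shAD4-1 were 1.83 for ND1, 1.30 for ND2, 0.39 for COX1, 0.85 for COX2, 1.28 for ATP8, 0.73 for ATP6, 1.03 for COX3, 1.86 for ND3, 1.51 for ND4L, 1.52 for ND4, 0.59 for ND5, 0.41 for ND6 and 1.07 for CYTB. With shAD4-2 they were 2.04 for ND1, 1.54 for ND2, 0.25 for COX1, 0.68 for COX2, 0.73 for ATP8, 0.67 for ATP6, 0.83 for COX3, 2.44 for ND3, 1.95 for ND4L, 1.69 for ND4, 0.55 for ND5, 0.37 for ND6 and 1.254 for CYTB. COX1 is the catalytic subunit of cytochrome c oxidase and CYTB that of complex III. Of the 6 mitochondrially encoded proteins outside complex I, 5 rose with each hairpin, and ATP8, at 0.704, 0.49 and 0.29 CPM with shAD4-1, with shAD4-2 and in control cells, was not called. The shAD4-2 libraries of COX2 and ATP6 overlapped those of control cells. The reads of all 13 mitochondrial protein genes together made up 3.62 to 3.81% of a library with shAD4-1, 3.6 to 3.89% with shAD4-2 and 2.3 to 2.61% in control cells.

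**Figure D3:**
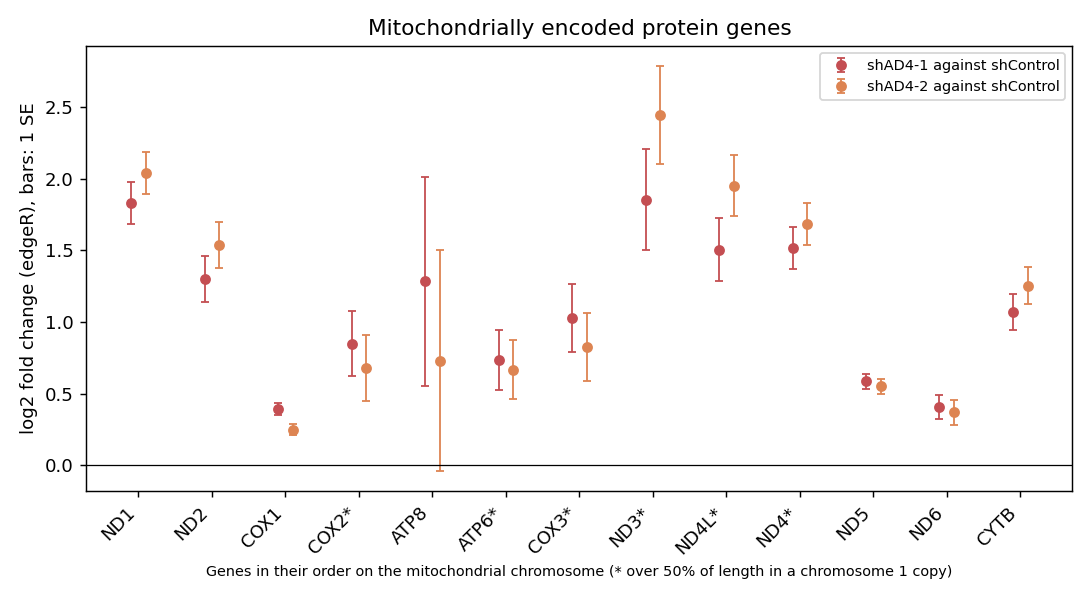
Log2 fold changes of the 13 mitochondrially encoded protein genes in their order on the mitochondrial chromosome, for shAD4-1 and shAD4-2 against shControl, as edgeR estimates with bars of 1 SE. A star marks genes with over 50% of their length in a near-identical copy on chromosome 1. ND1 and ND3 lie highest, and COX1, ND5 and ND6 lie low.

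Some mitochondrial genes have near-identical nuclear copies, and how reads that match several places were counted is not given in the sources used here. In GENCODE M21 transcripts, copies on chromosome 1 of at least 99% identity covered 99.1% of ND3, 99% of ND4L and 63.6% of ND4, and 0% of ND1, ND2, ND5 and ND6. Outside complex I they covered 99.6% of COX2, 99.6% of ATP6, 99.9% of COX3 and 31.3% of COX1. The levels of ND3 (3.66 FPKM with shAD4-1, 5.51 with shAD4-2 and 1.06 in control cells) and ND4L (21.0, 28.7 and 7.79 FPKM in the same order) were far below that of ND1. The part of the copies in these levels was not tested. Among the genes without such a copy, ND1 and ND2 rose 2.46-fold or more with each hairpin, and ND5 and ND6 rose least of the 7. At 95% identity or more, copies covered 49.1% of ND2 and 52.3% of ND5. Whether counting used the strand is not given either, so reads of ND6 and reads from the opposite strand cannot be told apart.

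Each rise of a mitochondrially encoded complex I gene was still called when any single library was left out, but the sizes depended on control replicate 1. Without that library ND1 rose 4.43-fold with shAD4-1 and 5.13-fold with shAD4-2. Without control replicate 3 ND1 rose 3.18-fold with shAD4-1 and 3.68-fold with shAD4-2.

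By their medians the nuclear core subunits rose more modestly, with Ndufv2 apart from the rest. Ndufv2, an iron-sulfur protein of the N module, had 210, 196 and 202 CPM with shAD4-1, 221, 216 and 199 CPM with shAD4-2 and 106, 109 and 103 CPM in control libraries. It rose 1.91-fold with shAD4-1 (log2 0.94, SE 0.044, adjusted p = 2.07e-12, edgeR) and 2.00-fold with shAD4-2 (log2 1.00, SE 0.044, adjusted p = 6.7e-13), with a wide gap between hairpin and control libraries. Ndufs1, the largest core subunit and carrier of several iron-sulfur clusters, had 295, 294 and 290 CPM with shAD4-1, 353, 345 and 342 CPM with shAD4-2 and 233, 215 and 204 CPM in control libraries. The 3 groups of Ndufs1 did not overlap, with rises of 1.35-fold (adjusted p = 6.51e-08, edgeR) and 1.60-fold (adjusted p = 1.2e-10). Ndufv1, which binds NADH and the flavin, rose 1.2-fold (adjusted p = 3.33e-05, edgeR) and 1.15-fold (adjusted p = 0.000633), the smallest of the called N-module core changes.

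In the Q module, Ndufs7 carries the last iron-sulfur cluster before quinone, Ndufs8 carries the pair of clusters ahead of it, and Ndufs3 is a core subunit without a cluster. Ndufs3 had 95.1, 101 and 98.0 CPM with shAD4-1, 97.6, 94.2 and 91.0 CPM with shAD4-2 and 71.9, 73.8 and 76.4 CPM in control libraries. Ndufs8 had 58.2, 58.2 and 57.9 CPM with shAD4-1, 55.8, 55.3 and 53.2 CPM with shAD4-2 and 38.7, 44.8 and 42.7 CPM in control libraries. Both Ndufs3 and Ndufs8 rose with each hairpin with no overlap, by 0.41 and 0.47 on the log2 scale with shAD4-1 and by 0.35 and 0.38 with shAD4-2. Ndufs7 overlapped. It had 50.1, 48.3 and 46.0 CPM with shAD4-1, 46.8, 44.3 and 43.1 CPM with shAD4-2 and 33.9, 38.1 and 48.1 CPM in control libraries, whose range covered most of the hairpin libraries. It was called with shAD4-1 (1.2-fold, adjusted p = 0.0134, edgeR) and not with shAD4-2 (log2 0.16, adjusted p = 0.121). The shAD4-1 call was lost without shAD4-1 replicate 1 (adjusted p = 0.0531, edgeR) or without control replicate 2 (adjusted p = 0.0518), and the shAD4-2 value was called without control replicate 3 (log2 0.32, adjusted p = 0.000287).

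**Figure D4:**
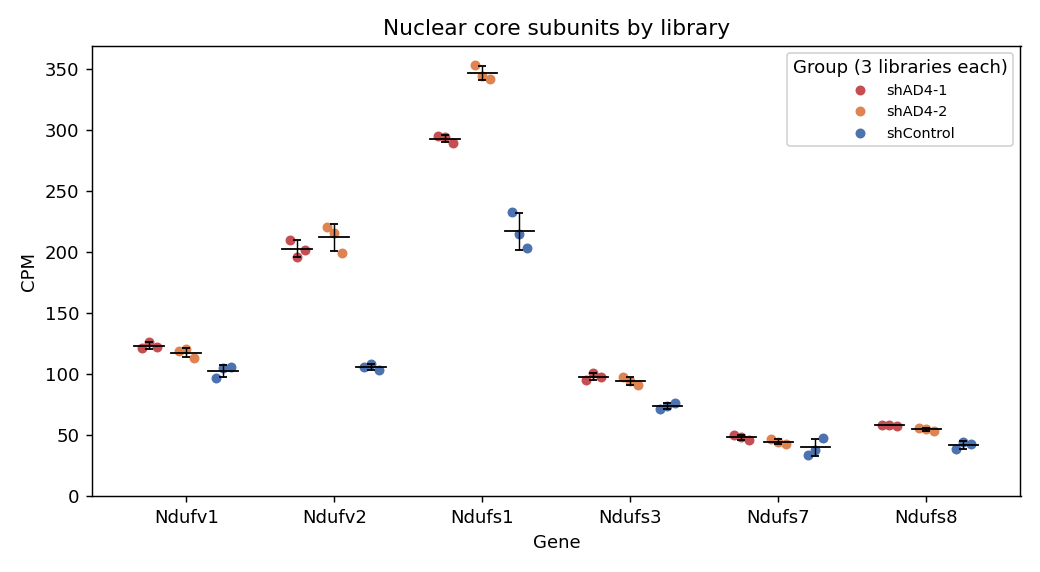
CPM of 6 nuclear core subunits, 1 point per library, with the mean (line) and SD (bars) of 3 libraries for shAD4-1, shAD4-2 and shControl. Ndufv2 shows the widest gap between hairpin and control libraries, the 3 groups of Ndufs1 are separate, and the control libraries of Ndufs7 spread over the values of the hairpin libraries.

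Set beside each other as sums, the core mRNAs from the 2 genomes were higher by different factors. Mitochondrially encoded core subunits summed to 9763 ± 457.5 CPM with shAD4-1, 10560 ± 966 CPM with shAD4-2 and 4534 ± 905 CPM in control cells. Nuclear core subunits summed to 1098 ± 10.3 CPM with shAD4-1, 1148 ± 36.4 CPM with shAD4-2 and 804 ± 8.95 CPM in control cells (SD, n = 3). The ratio of the mitochondrial to the nuclear sum was 8.37 to 9.32 with shAD4-1, 8.47 to 10.5 with shAD4-2 and 4.74 to 7.0 in control libraries. Accessory subunits summed to 2828 ± 22.7 CPM with shAD4-1, 2791 ± 35.2 CPM with shAD4-2 and 2697 ± 127 CPM in control cells, and the shAD4-2 and control libraries overlapped. The lowest shAD4-1 library, at 2805 CPM, lay barely above the highest control library, at 2800 CPM. In FPKM, which uses library totals without TMM factors, the accessory sum was 3510 with shAD4-1, 3498 with shAD4-2 and 3533 in control cells. As a share of reads it was 0.2787% with shAD4-1, 0.2755% with shAD4-2 and 0.2769% in control cells. Its rise in CPM thus depended on the scaling. Assembly factors summed to 204 ± 0.741, 191 ± 1.92 and 167 ± 4.56 CPM in the same order. Per length, the median accessory subunit stood at 99.8 FPKM with shAD4-1, 95.3 with shAD4-2 and 102 in control cells, and the median assembly factor at 16.1, 13.4 and 12.1 FPKM.

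The promoter windows of the 3 nuclear genes with the largest rises with both hairpins are shown. With them are those of Ndufs6 and Ndufb7, which had the largest falls with both. Genes were ranked by the smaller of their changes with shAD4-1 and shAD4-2. Each window is the stretch of 250 bases before the RefSeq start (GRCm38.p6, another build than the authors'), read on the gene's strand from 5′ to 3′. Capitals mark a match to a motif searched for.
Ndufv2, chr17:66101560-66101809, minus strand: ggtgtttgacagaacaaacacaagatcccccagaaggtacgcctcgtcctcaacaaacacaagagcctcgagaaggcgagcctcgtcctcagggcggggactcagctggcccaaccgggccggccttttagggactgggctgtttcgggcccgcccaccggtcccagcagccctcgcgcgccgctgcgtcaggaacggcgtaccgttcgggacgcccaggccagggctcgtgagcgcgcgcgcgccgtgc
Ndufb10, chr17:24724424-24724673, minus strand: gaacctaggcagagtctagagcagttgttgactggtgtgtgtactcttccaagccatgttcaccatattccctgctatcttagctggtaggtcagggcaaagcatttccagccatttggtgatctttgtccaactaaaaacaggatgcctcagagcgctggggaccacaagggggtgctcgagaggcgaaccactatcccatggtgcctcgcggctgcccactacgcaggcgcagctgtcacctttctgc
Ndufaf7, chr17:78936885-78937134, plus strand: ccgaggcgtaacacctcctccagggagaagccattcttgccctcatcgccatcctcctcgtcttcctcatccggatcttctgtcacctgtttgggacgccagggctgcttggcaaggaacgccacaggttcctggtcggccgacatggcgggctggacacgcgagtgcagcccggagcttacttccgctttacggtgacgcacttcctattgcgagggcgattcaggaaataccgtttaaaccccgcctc
Ndufs6, chr13:73328483-73328732, minus strand: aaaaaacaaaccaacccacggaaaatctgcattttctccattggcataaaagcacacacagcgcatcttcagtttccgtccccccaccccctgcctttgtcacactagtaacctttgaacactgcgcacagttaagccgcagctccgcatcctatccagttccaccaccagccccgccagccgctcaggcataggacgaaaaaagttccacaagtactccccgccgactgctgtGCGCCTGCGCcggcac
Ndufb7, chr8:83566508-83566757, plus strand: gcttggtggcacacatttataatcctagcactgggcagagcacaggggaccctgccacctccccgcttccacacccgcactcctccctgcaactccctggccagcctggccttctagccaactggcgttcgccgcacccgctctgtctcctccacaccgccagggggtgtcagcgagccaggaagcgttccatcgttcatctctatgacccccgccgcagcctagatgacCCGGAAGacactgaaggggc
The motifs were that of NRF1 (GCGC, any base, then TGCGC), an ETS core of the kind bound by GABP (CCGGAAG) and that of YY1 (AAGATGGC), searched on both strands. RefSeq windows were matched for 42 members, in 44 windows. For 36 of the 44, bases just after the start were found at the opening of a GENCODE M21 transcript of the gene. The 5 windows shown are among these, but that of Ndufa8, which held the NRF1 letters, is not. A member was counted where any of its windows held the letters, whereas the windows of all genes were counted singly. NRF1's letters occurred in 7 of the 42 (16.7%) against 3.74% of 32851 windows of all genes, the ETS letters in 5 (11.9%) against 6.91%, and those of YY1 in 0 against 1.56%. Among members higher with both hairpins 1 of 19 held the NRF1 letters, namely Ndufb4, and among those lower with both 1 of 8 did, namely Ndufs6. The ETS letters occurred in 2 of the 19, Ndufs3 and Ndufaf1, and in 1 of the 8, Ndufb7. The capitals in the window of Ndufs6 mark the NRF1 match and those of Ndufb7 the ETS match, and no match in the other windows says only that these letters are absent there.

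Accessory subunits moved in both directions, at shares near those of all tested genes. With both hairpins 10 of the 30 were called higher and 8 lower (28.1% and 27.6% of all tested genes), 8 were called with a single hairpin and 4 with neither (Ndufa2, Ndufa5, Ndufs4 and Ndufab1, the mitochondrial acyl carrier protein). The largest rise was that of Ndufb10, a subunit of the membrane arm with disulfide-forming cysteines facing the intermembrane space. It had 121, 126 and 132 CPM with shAD4-1, 139, 127 and 142 CPM with shAD4-2 and 79.3, 69.1 and 72.7 CPM in control libraries. Hairpin and control libraries of Ndufb10 lay far apart, at 1.72-fold (adjusted p = 4.98e-10, edgeR) and 1.85-fold (adjusted p = 6.78e-11).

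Next came Ndufa10, a membrane-arm subunit related to nucleoside kinases, with 155, 155 and 153 CPM with shAD4-1, 175, 168 and 162 CPM with shAD4-2 and 111, 113 and 112 CPM in control libraries, or log2 fold changes of 0.46 and 0.59. The distal membrane-arm subunits Ndufb4 (0.46 with shAD4-1 and 0.45 with shAD4-2) and Ndufb11 (0.44 and 0.48) and the N-module subunit Ndufa12 (0.43 and 0.36), which is related in sequence to the assembly factor Ndufaf2, rose by similar amounts. Ndufa7 (0.39 and 0.23), Ndufa1 (0.34 and 0.24) and Ndufb8 (0.23 and 0.31) also rose with both, and so did Ndufc1 and Ndufb9. The hairpin libraries of these 9 genes lay above those of control cells, except that Ndufa7 and Ndufb9 overlapped control libraries with shAD4-2. Processed pseudogenes of at least 99% identity cover 40.2% of the transcript of Ndufb4 and 36.2% of that of Ndufa12. They also cover 46.9% of that of Ndufs5 and 13.5% of that of Ndufab1. Reads of these genes could be divided or left out. At 95% identity or more, copies covered 75.7% of the core gene Ndufs3, 50% of Ndufb11, 37.9% of Ndufs6 and 37% of Ndufb3. The part of the copies in these levels was not tested.

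Ndufs6, a zinc-binding subunit needed for joining the N module, fell with both hairpins. It had 39.3, 39.1 and 39.2 CPM with shAD4-1, 40.7, 39.4 and 37.7 CPM with shAD4-2 and 51.0, 51.8 and 57.6 CPM in control libraries. Its hairpin libraries were nearly level with each other and all below control, and the log2 fold change was -0.45 with shAD4-1 (SE 0.057, adjusted p = 1.4e-06, edgeR) and -0.44 with shAD4-2 (SE 0.057, adjusted p = 1.4e-06). Ndufb7, another cysteine-rich subunit of the intermembrane-space side, had 40.8, 41.1 and 37.9 CPM with shAD4-1, 40.2, 42.9 and 39.0 CPM with shAD4-2 and 49.5, 52.5 and 54.6 CPM in control libraries (log2 -0.39 and -0.36). Ndufa13, also known as GRIM-19 and first described in interferon- and retinoid-induced cell death, fell by 0.29 and 0.36 on the log2 scale. Ndufa9, at the junction of the arms, had 216, 211 and 221 CPM with shAD4-1, 216, 209 and 198 CPM with shAD4-2 and 239, 263 and 270 CPM in control libraries (log2 -0.25 and -0.31). Hairpin and control libraries did not overlap for any of these 4 genes, while the shAD4-2 and shAD4-1 libraries overlapped for each.

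Ndufv3, an N-module subunit without a cofactor, fell by 0.24 on the log2 scale with shAD4-1 and by 0.61 with shAD4-2. Ndufa3 fell by 0.39 with shAD4-1 and 0.19 with shAD4-2, Ndufc2 by 0.17 and 0.27, and Ndufb5 by 0.11 and 0.26. The other called falls were those of Ndufb1 (log2 -0.50), Ndufa8 (-0.30) and Ndufs5 (-0.21) with shAD4-1 and of Ndufa6 (-0.14) with shAD4-2. The shAD4-2 and control libraries of Ndufa6 overlapped (adjusted p = 0.0222, edgeR).

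Counts by position in the enzyme stand beside 32.7% higher and 32.3% lower among all tested genes with shAD4-1, and 34.2% and 34.8% with shAD4-2, and the groups are too small to read a pattern from them. Of 10 N-module genes 5 rose and 2 fell with shAD4-1, and 5 rose and 3 fell with shAD4-2. Of 5 Q-module genes 4 rose with shAD4-1 and 3 with shAD4-2, and 0 fell by edgeR (0 also at an unadjusted p under 0.05 and with DESeq2, whereas limma on FPKM with a minimum of 1 FPKM called 1, Ndufa5, lower with shAD4-2). In the proximal membrane arm 4 of 10 nuclear genes rose and 6 fell with shAD4-1, and 3 rose and 4 fell with shAD4-2. In the distal membrane arm 6 of 12 nuclear genes rose and 3 fell with shAD4-1, and 7 rose and 2 fell with shAD4-2. The mitochondrially encoded subunits of the same membrane arm all rose, as given above.

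Assembly factors were led by Ndufaf7, an arginine methyltransferase that acts early in complex I assembly. It had 42.6, 41.1 and 41.8 CPM with shAD4-1, 36.0, 40.2 and 36.7 CPM with shAD4-2 and 22.2, 23.2 and 23.5 CPM in control libraries. Hairpin libraries lay well above control, at 1.82-fold (log2 0.86, SE 0.059, adjusted p = 4.09e-10, edgeR) and 1.64-fold (log2 0.71, SE 0.060, adjusted p = 5.57e-09). Ndufaf5, which hydroxylates an arginine of Ndufs7, rose by 0.24 and 0.36 on the log2 scale, and its partner Ndufaf8 fell by 0.40 with shAD4-2 (adjusted p = 0.0056, edgeR) and had a value of -0.17 with shAD4-1 (adjusted p = 0.208). Without control replicate 3 the Ndufaf8 call was lost (log2 -0.27, adjusted p = 0.0536, edgeR). Ndufaf1, Ndufaf2 and Ndufaf3, which act in early membrane-arm assembly, late N-module joining and early matrix-arm assembly, rose by 0.20 to 0.29 with shAD4-1 and by 0.25 to 0.30 with shAD4-2. Ndufaf6, at 1.92, 1.77 and 1.97 FPKM with shAD4-1, with shAD4-2 and in control cells, was called with neither hairpin.

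Ndufv2, Ndufb10 and Ndufaf7 all lie on chromosome 17, which carries 6 complex I genes. The other genes there are Ndufa7 (called higher with both hairpins), Ndufa11 (called higher with shAD4-1 only) and Ndufv3 (called lower with both). Of all 682 tested genes assigned to chromosome 17, 44.3% were called higher and 22.7% lower with shAD4-1 (32.7% and 32.3% of all tested genes). With shAD4-2 the shares on that chromosome were 43.7% higher and 25.1% lower (34.2% and 34.8% of all tested genes). The median log2 fold change of the 682 genes was 0.15 with shAD4-1 and 0.14 with shAD4-2, against log2 fold changes of 0.71 or more for Ndufv2, Ndufb10 and Ndufaf7. Whether the chromosome as a whole had a part in these values was not tested.

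Ndufa4 was the most abundant of the 51 nuclear genes of the set per length, at 692 FPKM with shAD4-1, 669 with shAD4-2 and 611 in control cells. It had 357, 339 and 351 CPM with shAD4-1, 340, 330 and 340 CPM with shAD4-2 and 294, 294 and 299 CPM in control libraries, and rose 1.18-fold (adjusted p = 8.53e-06, edgeR) and 1.14-fold (adjusted p = 0.000107). Ndufa4l2, known as a target of hypoxia-inducible factor that lowers complex I activity, was near the lower limit of the table, with 1.13, 1.28 and 1.49 CPM with shAD4-1, 0.918, 0.906 and 0.612 CPM with shAD4-2 and 1.48, 2.38 and 2.01 CPM in control libraries. It was called lower with shAD4-2 (0.417-fold, adjusted p = 0.000752, edgeR), with no overlap, and missed the threshold with shAD4-1 (0.663-fold, adjusted p = 0.0621), where the groups overlapped. Its shAD4-1 value was called lower without control replicate 1 (log2 -0.75, adjusted p = 0.0268, edgeR), with a minimum of 1 CPM (0.0389), with protein-coding genes only (0.0427) and with each limma setting (0.0101 to 0.0373). The 4 copies of accessory genes had 1.27 to 7.60 FPKM with shAD4-1, 1.49 to 7.87 with shAD4-2 and 1.5 to 8.35 in control cells. Of these, Ndufb4b was called higher with shAD4-2 (1.53-fold, adjusted p = 0.0178, edgeR). Its reads could be shared with Ndufb4.

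The hairpins were also set against each other. With shAD4-2 relative to shAD4-1, 6 of the 58 genes were called higher and 3 lower, or 15.5%, against 27.4% of all tested genes (13.4% higher and 14% lower). The libraries of the hairpins did not overlap for 26 of the 58 genes, against 44.5% of all tested genes. Ndufs1 was higher with shAD4-2, at the values given above (1.18-fold, log2 0.24, SE 0.043, adjusted p = 0.0004, edgeR). Ndufv3 had 95.2, 96.2 and 89.5 CPM with shAD4-2, 125, 119 and 117 CPM with shAD4-1 and 132, 148 and 147 CPM in control libraries. It was the largest called difference (log2 -0.36, SE 0.049, adjusted p = 3.26e-05, edgeR), with 3 separate groups. Ndufaf4, a partner of Ndufaf3, had 41.9, 40.2 and 49.3 CPM with shAD4-2, 55.6, 53.1 and 54.9 CPM with shAD4-1 and 48.7, 51.4 and 48.8 CPM in control libraries. It was lower with shAD4-2 than with shAD4-1 (log2 -0.32, adjusted p = 0.00132, edgeR), and control libraries lay between, above 2 of the shAD4-2 libraries and below all shAD4-1 libraries. Against control, Ndufaf4 was called lower with shAD4-2 (log2 -0.182, adjusted p = 0.0185, edgeR), though the libraries overlapped. With shAD4-1 it was not called against control (log2 0.135, adjusted p = 0.0701, edgeR).

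Ndufa3 and Ndufa8, both of the proximal membrane arm, were higher with shAD4-2 than with shAD4-1, and their means were highest in control cells, where Ndufa8 overlapped shAD4-2. Ndufa8 had 53.6, 52.4 and 52.5 CPM with shAD4-2, 46.0, 46.0 and 44.2 CPM with shAD4-1 and 52.5, 56.2 and 58.4 CPM in control libraries (shAD4-2 over shAD4-1: log2 0.22, adjusted p = 0.00407, edgeR). Ndufa3 had 70.0, 68.5 and 68.0 CPM with shAD4-2, 60.6, 60.3 and 59.0 CPM with shAD4-1 and 72.8, 83.3 and 79.6 CPM in control libraries (log2 0.20, adjusted p = 0.00664, edgeR). The hairpin groups were separate for both genes. Ndufb2 (log2 0.23), Ndufb1 (0.29), Ndufa10 (0.12) and Ndufb5 (-0.15) completed the called differences, and the hairpin libraries of Ndufb1 overlapped.

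**Figure D5:**
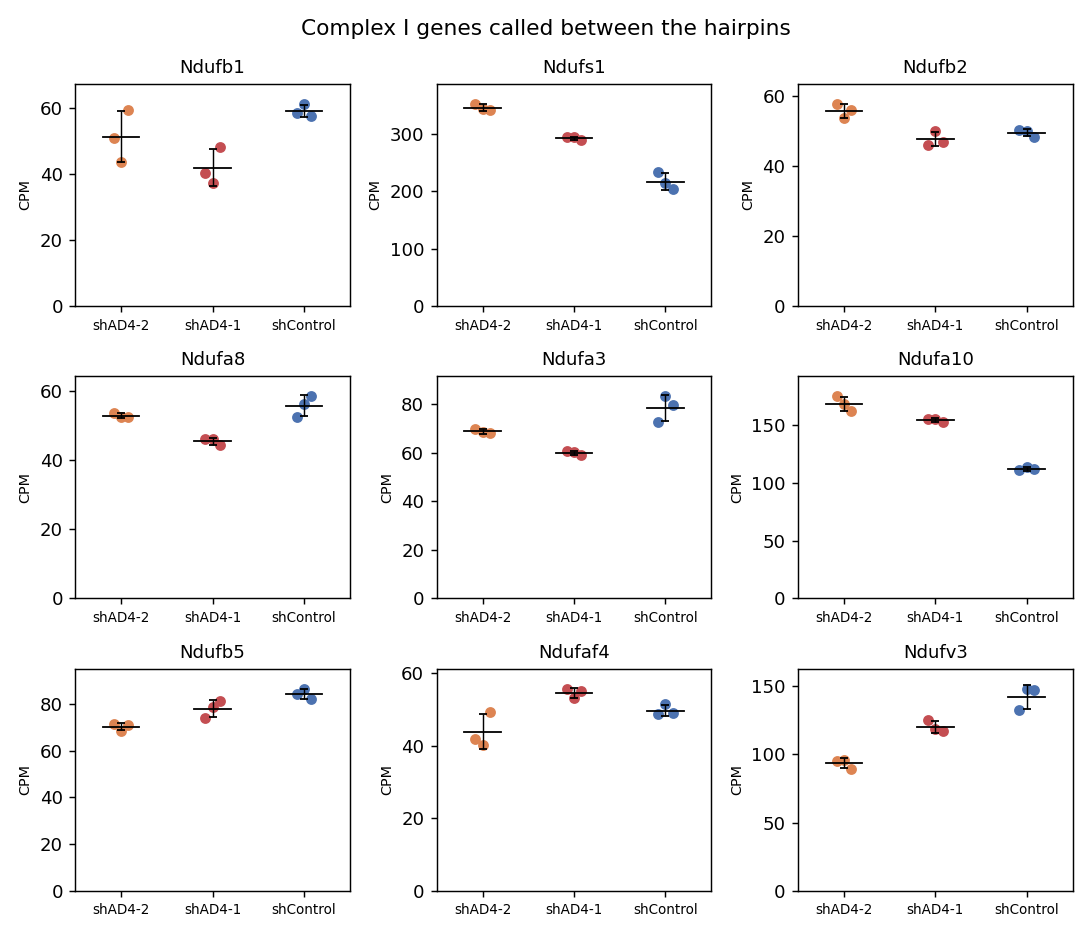
CPM of the 9 complex I genes called between the hairpins, 1 point per library, with the mean (line) and SD (bars) of 3 libraries for shAD4-2, shAD4-1 and shControl, on axes that start at 0. Ndufv3 and Ndufs1 form 3 separate groups, whereas the hairpin libraries of Ndufb1 overlap.

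None of the 7 mitochondrially encoded subunits was called between the hairpins by edgeR over all 9 libraries after the filter on low counts (0 at an adjusted p under 0.05 with edgeR, DESeq2 and limma, and 1, ND4L, at an unadjusted p under 0.05 with edgeR). This depended on the fit for ND1, ND2, ND4 and ND4L. The log2 differences of shAD4-2 over shAD4-1 were 0.21 for ND1 (adjusted p = 0.301, edgeR), 0.24 for ND2 (0.286), 0.59 for ND3 (0.144), 0.17 for ND4 (0.427) and 0.45 for ND4L (0.0902). For ND1, ND2, ND4 and ND4L every shAD4-2 library lay above every shAD4-1 library. Without control replicate 1, these 4 were called at adjusted p-values of 0.0022, 0.000927, 0.00267 and 0.00842 (edgeR), with log2 differences of 0.21, 0.24, 0.17 and 0.45. With no low-count filter they were called with that library kept, at adjusted p-values of 1.9e-07, 7.82e-09, 0.000154 and 0.00857 (edgeR). In a fit of the hairpin groups alone the values were 0.00209, 0.000669, 0.00296 and 0.00772, and ND4L was also called without control replicate 3 (adjusted p = 0.0497, edgeR). ND5 (log2 -0.03) and ND6 (-0.04) were called in none of these fits. Without that control library 20 complex I genes were called between the hairpins, against 9 with it. Of all tested genes 35.2% were called without it and 27.4% with it.

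Other genes that serve complex I or the mitochondrial genome moved in part with these changes. Of 14 assembly factors without the Nduf name 4 rose and 3 fell with shAD4-1, and 5 rose and 3 fell with shAD4-2, or 50% and 57.1% called, below the shares of all tested genes. Foxred1, an oxidoreductase of complex I assembly, rose by 0.41 and 0.37 on the log2 scale. Nubpl, which delivers iron-sulfur clusters to complex I, fell by 0.62 and 0.50, Dmac1 by 0.60 and 0.69 and the membrane-arm factor Tmem126b by 0.48 and 0.47.

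Of 22 genes of mitochondrial transcription and RNA handling, 14 rose and 3 fell with shAD4-1, and 17 rose and 2 fell with shAD4-2. The shares that rose were 63.6% and 77.3%, against 32.7% and 34.2% of all tested genes. Lrpprc, which stabilises mitochondrial mRNAs, averaged 222 CPM with shAD4-1, 224 with shAD4-2 and 105 in control cells (log2 1.08 and 1.09, adjusted p = 1.17e-14 and 9.3e-15, edgeR). Its binding partner Slirp fell by 0.52 and 0.38. The mitochondrial transcription factors Tfam (0.84 and 0.95) and Tfb2m (0.98 and 1.09), the polymerase Polrmt (0.62 and 0.71) and the helicase Supv3l1 (0.71 and 0.81) rose, and the RNA-binding protein Grsf1 fell by 0.35 and 0.36. Among 8 regulators of mitochondrial genes, 4 rose and 1 fell with shAD4-1, and 5 rose and 2 fell with shAD4-2, or 62.5% and 87.5% called, against 65% and 69% of all tested genes. The coactivator Ppargc1a averaged 221 CPM with shAD4-1, 226 with shAD4-2 and 82.2 in control cells (log2 1.43 and 1.46). Nrf1, whose motif was searched above, had log2 values of -0.11 with shAD4-1 (adjusted p = 0.141, edgeR) and -0.20 with shAD4-2 (adjusted p = 0.0106), and the ETS subunit Gabpa fell by 0.12 and 0.11.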

How the data were processed

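Total RNA of 9 B16 libraries, 3 per group by their titles, was prepared with the VAHTS Universal V6 kit, per the labels' protocols. Reads were processed with fastp, HISAT2 and HTSeq on GRCm39, per the submitters' processing notes, without versions or strand settings. The authors deposited whole-number read counts per gene and FPKM for the same 21676 genes. These FPKM followed from the counts, the library totals and 1 length per gene, without TMM factors. P-values measure the spread between these libraries, 31.3 to 36.9 M reads each, and depth sets the precision of genes with few reads, such as ND3.

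Counts were filtered (filterByExpr, 13807 genes with 99.968% of reads), TMM-scaled and tested by edgeR 4.0.16 (R 4.3.3) quasi-likelihood fits over all 9 libraries with group as the term. Adjustment was by Benjamini-Hochberg over all tested genes at 0.05. SE is the log2 fold change over the square root of F. The script was tested on simulated counts. Near-identical copies were sought among GENCODE M21 transcripts (at least 99% identity over 100 bases), and promoters and chromosomes came from RefSeq tables of GRCm38.p6. Alternatives used DESeq2 1.42.0, limma 3.58.1 (log2 FPKM), other filters and scalings, the replicate block, and each library left out.

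Members and lists were chosen with earlier results of these data known. Named by rule were core subunits, Ndufa4, Ndufa4l2 and, per comparison, up to 8 accessory or assembly genes with the largest called rise and fall without overlap. Up to 4 per other list had the smallest adjusted p. Outside this rule, genes were named where a count was 5 or fewer, and Nrf1, Polrmt, Slirp, Grsf1, Ndufc1, Ndufb9, Ndufaf1, Ndufaf2 and Ndufaf3 after their values were seen. 1 gene that the rule selects is counted but not reported here.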

Additional observations from a re-analysis of the deposited data

Results flagged for a closer look

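Between the hairpins, 9 complex I genes differed by a test of the difference itself (shAD4-2 over shAD4-1, edgeR, adjusted p under 0.05). The log2 differences were 0.242 for Ndufs1, 0.293 for Ndufb1, 0.226 for Ndufb2, 0.219 for Ndufa8, 0.199 for Ndufa3 and 0.124 for Ndufa10. They were -0.363 for Ndufv3, -0.317 for Ndufaf4 and -0.149 for Ndufb5. The call of Ndufa10 was lost without any single shAD4-1 library and without shAD4-2 replicate 1 or 2, at adjusted p-values of 0.0577 to 0.129 (edgeR). That of Ndufb5 was lost without shAD4-1 replicate 2 or 3 and without shAD4-2 replicate 2, at adjusted p-values of 0.0803 to 0.116 (edgeR). Groups of 3 libraries were too small to look for single outlying libraries gene by gene.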

How the results depend on the processing

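Requiring a fold beyond 1.2 (glmTreat) left 22 complex I genes with shAD4-1 (18 higher, 4 lower), 21 with shAD4-2 (16 and 5) and 0 between the hairpins (0 and 0). Of all tested genes, 37.9%, 43.4% and 3.63% were called at that setting, in the same order. For shAD4-2 against shAD4-1, 18 (11 higher, 7 lower) were called with no low-count filter and 20 (12 and 8) with only these groups in the fit. The shares of all tested genes called at these settings were 18.2% and 36%. In that comparison 5 were lower with upper-quartile scaling, a minimum of 1 CPM, protein-coding genes only and limma on FPKM (either pseudocount) with a minimum of 1 FPKM. Leaving out single libraries gave 40 to 44 genes with shAD4-1 (31 to 33 higher, 9 to 13 lower), 41 to 45 with shAD4-2 (30 to 33, 10 to 14) and 6 to 20 between the hairpins (4 to 12, 2 to 8). Control replicate 1 gave the upper end of the last, and the cause was not tested. Over these fits 59.6 to 65.6%, 64 to 69.2% and 19.8 to 35.2% of all tested genes were called, in the same order. Other alternatives kept each count within 1.5 times.

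Of 84 results for named genes, 68 were called. Of these, 64 kept direction and call under every alternative other than glmTreat, and 43 under glmTreat too. Those of Ndufs7 with shAD4-1, Ndufaf8 with shAD4-2, and Ndufa10 and Ndufb5 between the hairpins did not. Of the 84, only the uncalled difference of ND6 between the hairpins reversed (0.004 without shAD4-1 replicate 3, with a range over the single libraries left out of -0.107 to 0.004).

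Same-numbered libraries did not deviate together (r of -0.124 to 0.00225 over 9 pairs), and 0 of 9 libraries correlated best with their own number. With the replicate block, 42 genes (32 higher, 10 lower) were called with shAD4-1, 44 (31 and 13) with shAD4-2 and 10 (6 and 4) between the hairpins. The shares of all tested genes with that block were 64%, 67.9% and 25.4%.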
